A study of Mus musculus with 24 samples.

Results

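The response of PERK-null mouse embryonic fibroblasts to tunicamycin was set against that of fibroblasts whose eIF2α cannot be phosphorylated. The value compared for each gene was the difference of responses, that is PERKKO cells with tunicamycin minus PERKKO cells untreated, minus eIF2a A/A cells with tunicamycin minus eIF2a A/A cells untreated. The members were the arrays that the labels put into these 4 groups, 8 of the 24 arrays of the series, with 2 arrays a group. PERKKO cells lack the kinase PERK, and eIF2a A/A cells carry the S51A change in eIF2α, per the design text. By their labels, treated cells of both lines had 12 h of tunicamycin, and the protocol gives its concentration as 2 µg/mL, and the untreated cells of both lines had none. That protocol names 12 or 24 h, and although untreated PERKKO replicate 2 is labelled like replicate 1, its data file carries the name of a 24 h mock. The labels do not say that the 2 arrays of a group came from separate cultures, so the p-values cannot be taken to measure spread between cultures. They reflect spread between arrays, which may be technical and which was taken from all 24 arrays, other lines included. The labels give neither the number of clones nor the embryos behind either line.

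PERK sits in the membrane of the endoplasmic reticulum (ER) and, on protein misfolding there, adds a phosphate to the translation factor eIF2α. GCN2, PKR and HRI are the other kinases known to phosphorylate the same serine. Phosphorylated eIF2α slows most translation and lets more of the transcription factor ATF4 be made, which turns on genes for amino acid supply and stress, the integrated stress response (ISR). Tunicamycin blocks N-glycosylation, so that proteins misfold in the ER, and it also activates IRE1 and ATF6, which raise ER chaperones without eIF2α. The comparison asks which genes respond without PERK but not without the eIF2α serine, which bears on the other eIF2α kinases.

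The cultures carried fibroblast markers, and 12 of 14 were well above background on all 8 arrays. Summed over the list on the linear scale, their level was 303 to 344 on treated and 240 to 243 on untreated PERKKO arrays, against 1320 to 1360 on treated and 1330 to 1340 on untreated eIF2a A/A arrays, in multiples of the 75th percentile of the array. A sum follows its brightest members, and gene by gene PERKKO was lower for 10 of the 14 between treated and 8 of the 14 between untreated cells, with medians of -0.35 and -0.68 (log2). Prrx1 went the other way, at 3.5 and 3.64 on treated and 3.12 and 3.21 on untreated PERKKO arrays, against 2.02 and 1.94 on treated and 2.09 and 2.24 on untreated eIF2a A/A arrays. The sum over 9 epithelial markers was 53 to 59 on treated and 44.9 to 54.3 on untreated PERKKO arrays, against 0.989 to 1.02 on treated and 0.967 to 1.08 on untreated eIF2a A/A arrays, and 4 of the 9 were well above background on all 8. The lines thus differed before any treatment, and the part of these markers in the differences below was not tested. In bulk RNA, fewer cells of a type and less RNA per cell cannot be told apart. By the dates in the file headers, all PERKKO arrays were scanned in one period and all eIF2a A/A arrays in another, called scan runs here, so line and scan run cannot be told apart. The PERKKO arrays of slide 3 (treated replicate 1 and untreated replicate 2) had 49.5% and 48% of probes well above background, against 55.5% and 55.8% on slide 4 (treated replicate 2 and untreated replicate 1). The 2 slides also differed in adipocyte genes. Lpl, lipoprotein lipase, read -0.01 on the treated and 1.05 on the untreated PERKKO array of slide 3, against -7.03 on the treated and -6.8 on the untreated one of slide 4, where it was not well above background. Fabp4, a fatty acid carrier, read 1.77 on the treated and 2.19 on the untreated array of slide 3, against -2.5 on the treated and -2.31 on the untreated one of slide 4. Summed over the adipocyte and bone markers the level was 0.954 to 6.93 on treated and 0.934 to 9.36 on untreated PERKKO arrays, against 5.17 to 5.41 on treated and 5.51 to 6.18 on untreated eIF2a A/A arrays. The PERKKO arrays thus formed pairs by slide and not by replicate number, and each slide held 1 treated and 1 untreated array, so the response could also be read within a slide.

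Eif2ak3, the gene of PERK, read 0.00 and 0.28 on treated and 0.00 and -0.47 on untreated PERKKO arrays, against 2.14 and 2.11 on treated and 0.96 and 1.06 on untreated eIF2a A/A arrays. Levels here and below are log2 signal minus the log2 75th percentile of the array, in the order of the replicates. Eif2ak3 was lower on every PERKKO array than on any eIF2a A/A array, but a probe beyond the deleted stretch would check nothing, and where this one lies is not known here. Eif2s1, the gene of eIF2α, read 3.36 and 3.70 on treated and 3.5 and 3.47 on untreated PERKKO arrays, against 4.95 and 4.72 on treated and 5.09 and 5.29 on untreated eIF2a A/A arrays. A point mutation need not change this level, so it checks no label, and a second Eif2s1 probe gave a difference of responses of -0.13 where the brighter one gave 0.39.

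Genes differed in both directions. In PERKKO relative to eIF2a A/A cells the response of 25 genes was higher, among them the stress genes Fgf21, Trib3 and Asns, the chemokine gene Cxcl10 and the phosphatase gene Dusp8. The response of 26 genes was lower, among them the ER genes Sdf2l1, Creld2, Dnajb9 and Ero1b and the stress-induced gene Ndrg1. Of 14459 genes tested, 0.173% were called higher and 0.18% lower (limma on all 24 arrays, which share 1 estimate of the spread, two-sided, Benjamini-Hochberg adjusted p under 0.05). All 51 had the same sign of the difference on both PERKKO slides. The 51 were picked from these same arrays, which favours a shared sign between slides and when an array is left out. Neither is a replication. The median difference over all genes was 0.03 (log2).

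How many genes passed depended on which arrays set the spread. The median SD per gene was 0.149 and 0.15 (log2) in treated and untreated PERKKO cells and 0.0671 and 0.0895 in treated and untreated eIF2a A/A cells. It was 0.209 and 0.314 in treated and untreated ATF4KO cells, all of another scan run. In treated and untreated WT cells, which span that run and the PERKKO run, it was 0.373 and 0.348. Those WT values include the shift between runs. The fit of 24 arrays removes a shift common to both WT groups. A WT response that differs between the runs stays in the shared spread. With only the 16 arrays of the 2 runs that hold these lines, 1294 genes (8.95%) were called higher and 1030 (7.12%) lower, and they include all 51. Both fits take the difference from the same 8 arrays and give the same value for each gene. The shared sign was thus fixed in advance, and only the spread differs between the fits. With slide as a block in the fit of 24 arrays the counts were 80 and 74. With a block for replicate number in each line they were 4 and 0, and with that block crossed in PERKKO cells to follow the slides they were 3 and 0, Dusp8 and Pmepa1 among them. Under either of these, no gene was called lower, and 1 and 0 genes were left as changed in PERKKO cells alone. Without the PERKKO arrays of slide 3 the counts were 8 and 2, and without those of slide 4 they were 3 and 3. Leaving out any 1 of the 8 arrays left 4 to 15 genes higher and 2 to 12 lower. All 51 kept their sign whichever array was left out, and 5 of them, Cxcl10, Dusp8, Pmepa1, Timp3 and Ndrg1, stayed called in all 8 cases. For 28 of the 51, every single omission ended the call.

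**Figure D1:**
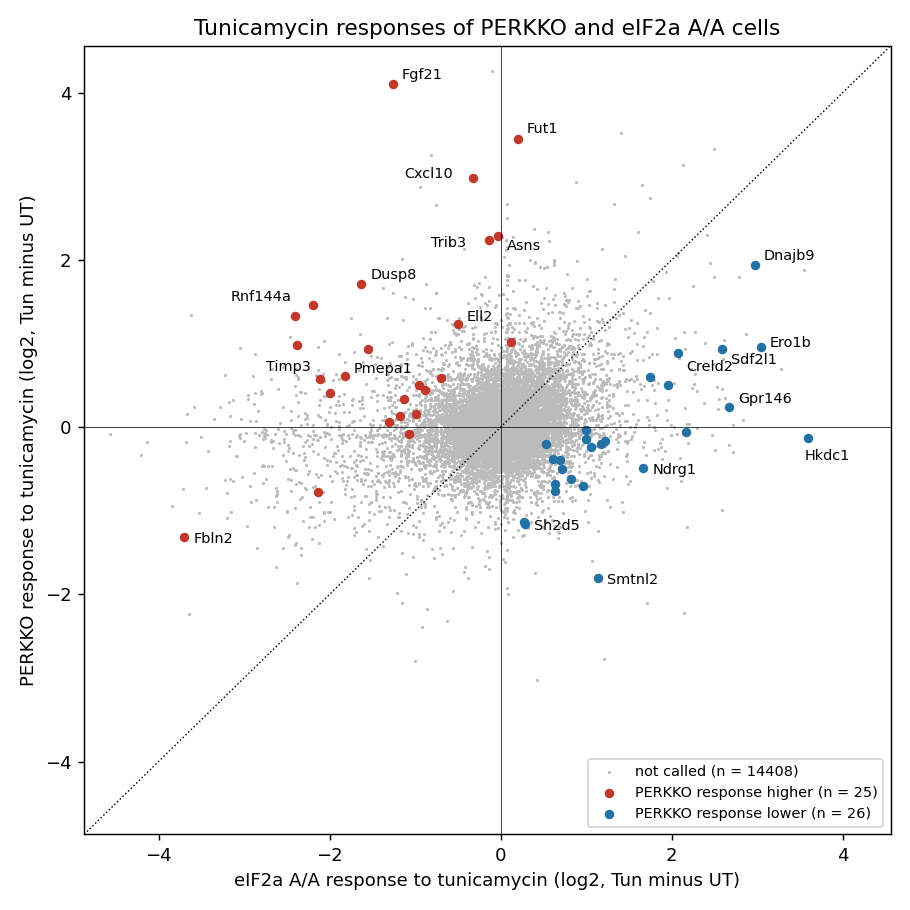
Each point is 1 of 14459 genes, with its tunicamycin response in PERKKO cells on the vertical axis and in eIF2a A/A cells on the horizontal axis (log2, treated minus untreated, 2 arrays a group). The 25 genes with a higher response in PERKKO cells (red) lie above the dotted line of equal response and the 26 with a lower one (blue) below it, and Fgf21, Fut1, Cxcl10, Trib3 and Asns rise on the vertical axis while lying near or below 0 on the horizontal one.

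The responses themselves were of unequal breadth. In PERKKO cells 271 genes (1.87%) rose and 59 (0.408%) fell, and in eIF2a A/A cells 445 (3.08%) rose and 263 (1.82%) fell. Of these, 126 genes were called in the same direction in both lines, which is 126 of the 330 called in PERKKO cells and 126 of the 708 called in eIF2a A/A cells. Sorted by the calls of the 3 contrasts, 7 genes rose and 4 fell in PERKKO cells alone with a called difference, and 19 rose and 14 fell in eIF2a A/A cells alone. Another 111 rose and 10 fell in both lines without a called difference, and 2, Dusp8 and Pmepa1, went in opposite directions. In the fit of 16 arrays these classes held 368 and 255, 531 and 637, 552 and 220, and 221 genes.

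The 7 genes that rose in PERKKO cells alone were Fgf21, Fut1, Cxcl10, Asns, Trib3, Ell2 and S1pr2. Asns makes asparagine, Trib3 encodes a pseudokinase that binds ATF4, and Fgf21 encodes a hormone secreted under stress. All 3 are known targets of ATF4, and each holds a match to the C/EBP-ATF element, the composite site of ATF4 and its C/EBP partners, near its start site. The stretches around the match are shown because these genes rose in PERKKO cells alone, together with those of Atf3, Chac1 and Slc7a11, stress genes with matches whose differences are given below. Herpud1, Nupr1, Iars and Tars, also named below, held matches too, which are not shown. The element was searched as TGATGNAA on both strands in the RefSeq promoters of GRCm38.p6, from 250 bases before to 50 after the start site. Capitals mark each match, and every line runs 5′ to 3′ on the strand of the gene.
Asns, chr6:7693175-7693282, minus strand: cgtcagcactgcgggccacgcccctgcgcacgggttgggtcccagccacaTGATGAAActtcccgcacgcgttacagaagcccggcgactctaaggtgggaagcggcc
Trib3, chr2:152344011-152344096, minus strand: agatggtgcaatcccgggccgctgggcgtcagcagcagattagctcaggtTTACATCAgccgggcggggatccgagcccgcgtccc
Fgf21, chr7:45615572-45615679, minus strand: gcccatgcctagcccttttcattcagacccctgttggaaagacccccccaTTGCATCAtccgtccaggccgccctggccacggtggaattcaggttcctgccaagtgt
Atf3, chr1:191183386-191183493, minus strand: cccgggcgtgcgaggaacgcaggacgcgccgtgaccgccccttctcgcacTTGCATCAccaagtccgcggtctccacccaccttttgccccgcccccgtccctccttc
Chac1, chr2:119350999-119351106, plus strand: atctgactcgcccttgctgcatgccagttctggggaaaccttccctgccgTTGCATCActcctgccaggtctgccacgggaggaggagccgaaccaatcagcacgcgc
Slc7a11, chr3:50443622-50443729, minus strand: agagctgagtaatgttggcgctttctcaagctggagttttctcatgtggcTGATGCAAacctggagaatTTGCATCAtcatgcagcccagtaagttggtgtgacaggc

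The element stood in 3 of the 7 promoters of the genes that rose in PERKKO cells alone (42.9%), namely those of Asns, Trib3 and Fgf21. It stood in 0 of the 17 promoters of genes that rose in eIF2a A/A cells alone and in 2 of the 87 of genes that rose in both lines (2.3%). Of the 11470 tested genes with a promoter sequence 352 held it (3.07%), and of all 27025 promoters 1219 did (4.51%). By the calls of the 16 arrays, it stood in 24 of 290 promoters of genes that rose in PERKKO cells alone (8.28%) and in 9 of 425 of those that rose in eIF2a A/A cells alone (2.12%). The match of Fgf21 began at -139, that of Asns at -23 and that of Trib3 at 14, counted from the start site at 0. Herpud1, which rose in both lines with a difference of -0.02, held a match at -112. A match was thus not particular to genes whose responses differed. A match is a description of these letters and not a measured site. The unfolded protein response element, searched as TGACGTGG on both strands, stood in 0 of the 23 promoters found for the 25 genes with a higher and in 0 of the 23 found for the 26 genes with a lower response, against 1.0% of the promoters of tested genes.

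Asns rose in PERKKO cells and did not pass the test in eIF2a A/A cells, where it was already high. It read 5.88 and 6.08 on treated and 3.68 and 3.70 on untreated PERKKO arrays, against 5.73 and 5.61 on treated and 5.61 and 5.78 on untreated eIF2a A/A arrays. The treated PERKKO arrays lay above both untreated ones, and the eIF2a A/A groups overlapped. Its response was 2.29 ± 0.25 (log2 ± SE, 4.89-fold, adjusted p = 0.000119) in PERKKO and -0.03 ± 0.25 (adjusted p = 0.984) in eIF2a A/A cells, and the difference 2.32 ± 0.35 had an adjusted p of 0.0149 in limma. Mthfd2, an enzyme of mitochondrial one-carbon metabolism, was likewise high in eIF2a A/A cells without treatment. Its level was 2.96 and 2.92 on treated and 1.35 and 1.58 on untreated PERKKO arrays, against 2.92 and 2.72 on treated and 3.16 and 3.24 on untreated eIF2a A/A arrays. Its difference of 1.86 ± 0.40 was not called over 24 arrays (limma, adjusted p = 0.0607) and was called over 16 (adjusted p = 0.000173).

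Trib3 and Fgf21 also rose in PERKKO cells and were not called in eIF2a A/A cells. Trib3 read 3.91 and 3.94 on treated and 1.81 and 1.56 on untreated PERKKO arrays, against 1.84 and 1.73 on treated and 1.70 and 2.16 on untreated eIF2a A/A arrays, where treated and untreated arrays overlapped. The difference was 2.38 ± 0.41 (limma, adjusted p = 0.0283), from a response of 2.24 ± 0.29 in PERKKO and -0.14 ± 0.29 in eIF2a A/A cells. Fgf21 read 0.53 and 0.57 on treated and -3.98 and -3.13 on untreated PERKKO arrays, against -6.41 and -6.50 on treated and -6.59 and -3.80 on untreated eIF2a A/A arrays. On the treated eIF2a A/A arrays it was not well above background, and the untreated ones lay far apart. Its difference, the largest among the 51 at 5.36 ± 0.98 (limma, adjusted p = 0.0373), is therefore a fitted value and no measured ratio between lines. The PERKKO response alone was 4.10 ± 0.69 (17.2-fold, adjusted p = 0.00376). Leaving out untreated eIF2a A/A replicate 2 gave a difference of 3.97, and leaving out untreated eIF2a A/A replicate 1 gave 6.76. Of the 8 fits that each left out 1 array, Asns stayed called in 4, Ell2 in 3, Fgf21 and Trib3 in 1 each, and Fut1 and S1pr2 in 0.

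Other stress genes had large differences that passed the test in some fits and not in others. Atf3, a transcription factor induced by stress, read 0.81 and 0.66 on treated and -1.25 and -0.70 on untreated PERKKO arrays, against -1.51 and -1.33 on treated and -0.56 and -0.53 on untreated eIF2a A/A arrays. The groups did not overlap in either line and went opposite ways. Its difference of 2.59 ± 0.58 missed the threshold over 24 arrays (limma, adjusted p = 0.0665), and passed it over 16 arrays (0.000138) and with slide as a block (0.00212). Chac1, which degrades glutathione, read 4.09 and 4.33 on treated and 1.07 and 1.48 on untreated PERKKO arrays, against 3.42 and 3.30 on treated and 2.34 and 2.62 on untreated eIF2a A/A arrays. Its difference was 2.05 ± 0.57, with a limma adjusted p of 0.143 over 24 arrays, 0.0172 with slide as a block and 0.000522 over 16. Chac1 rose in PERKKO cells (2.93 ± 0.41, adjusted p = 0.000851), and in eIF2a A/A cells the change of 0.88 ± 0.41 was called over 16 arrays (adjusted p = 0.00215) and not over 24 (0.274).

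Slc7a11, the light chain of the cystine transporter, read -3.21 and -3.48 on treated and -6.14 and -5.89 on untreated PERKKO arrays, and was not well above background on either untreated array. It was at least 1.84-fold higher with tunicamycin, taking the dimmest signal well above background on each untreated array as its ceiling, while the fitted 2.66 ± 0.57 (limma, adjusted p = 0.0202) is no bound. On no eIF2a A/A array was it well above background. Atf4 itself read 7.85 and 7.95 on treated and 6.56 and 6.76 on untreated PERKKO arrays, against 7.86 and 7.73 on treated and 7.76 and 7.96 on untreated eIF2a A/A arrays. The treated PERKKO arrays lay above the untreated ones and within the range of the eIF2a A/A arrays. The difference for Atf4 was 1.30 ± 1.33 over 24 arrays (limma, adjusted p = 0.815), where the ATF4KO arrays entered the spread, and had an SE of 0.14 and an adjusted p of 0.000541 over the 16 arrays without them. A second Atf4 probe gave a difference of 1.23.

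Not every gene of the response separated the lines. Ddit3, which encodes the transcription factor CHOP, read 1.91 and 1.78 on treated and 0.56 and 0.59 on untreated PERKKO arrays, against 1.41 and 1.44 on treated and 0.22 and 0.36 on untreated eIF2a A/A arrays. It rose in both, by 1.27 ± 0.20 in PERKKO (limma, adjusted p = 0.0021) and 1.13 ± 0.20 in eIF2a A/A cells (adjusted p = 0.00366), with a difference of 0.14 ± 0.28 (adjusted p = 0.913). Herpud1, which helps assemble the ER degradation machinery, rose by 2.05 ± 0.16 in PERKKO and 2.06 ± 0.16 in eIF2a A/A cells, with a difference of -0.02 ± 0.23 (limma, adjusted p = 0.989). Slc3a2, the heavy chain of amino acid transporters, and Slc6a9, a glycine transporter, rose in both lines too. Slc3a2 rose by 3.14 ± 0.21 in PERKKO and 2.13 ± 0.21 in eIF2a A/A cells, and Slc6a9 by 2.90 ± 0.32 and 1.65 ± 0.32 in the same order. Their differences of 1.01 ± 0.29 and 1.25 ± 0.46 were called over 16 arrays (limma, adjusted p = 0.000995 for Slc3a2 and 0.000774 for Slc6a9) and not over 24 (0.154 and 0.297). Cth, which makes cysteine, and Ppp1r15a, the stress-induced subunit of the eIF2α phosphatase, were called in neither line over 24 arrays, with responses of 0.40 and 0.36 in PERKKO and 0.41 for each in eIF2a A/A cells.

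**Figure D2:**
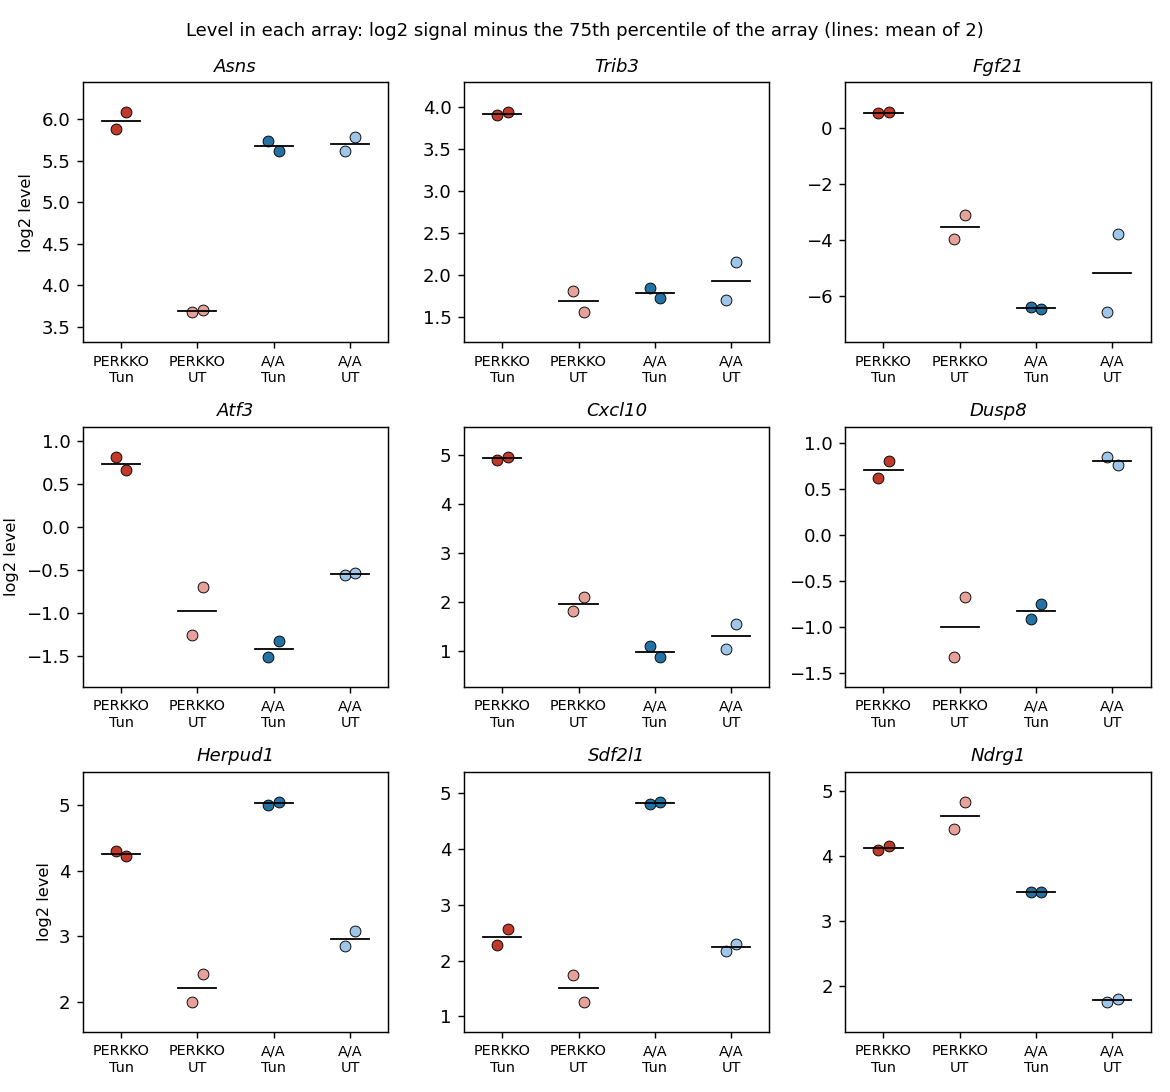
Points are the level on each of the 8 arrays (log2 signal minus the 75th percentile of the array), 2 for each group, and lines their mean, with a vertical axis of its own in each panel. Asns, Trib3, Fgf21, Atf3 and Cxcl10 rose with tunicamycin in PERKKO cells and were not called over 24 arrays in eIF2a A/A cells, where Asns was high on all 4 arrays, Dusp8 went opposite ways, Herpud1 rose in both lines, Sdf2l1 rose more in eIF2a A/A cells, and Ndrg1 rose in eIF2a A/A cells and was not called in PERKKO cells.

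Lists of genes of amino acid supply had positive median differences, but 1 of their members was called over 24 arrays, and the other calls came from the fit of 16, where 8.95% of all genes were called higher and 7.12% lower. The lists were chosen with earlier results of these data known, so their counts are descriptions. Of 19 tested genes of amino acid and one-carbon synthesis the difference of 1, Asns, was called higher over 24 arrays, and over 16 arrays those of 10 were called higher and 1 lower. Their median difference was 0.69, against 0.03 over all genes, from a median response of 0.54 in PERKKO and -0.03 in eIF2a A/A cells. Aldh1l2, a mitochondrial folate enzyme, and Gpt2, which makes alanine, differed by 2.00 ± 1.00 and 1.28 ± 0.33, both called over 16 arrays (limma, adjusted p = 0.000138 and 0.00288). The serine synthesis genes Phgdh and Psat1 differed by less, 0.47 ± 0.40 and 0.81 ± 0.39, and were called over 16 arrays (limma, adjusted p = 0.0281 and 0.00911) and not over 24 (0.763 and 0.473). Their second probes gave smaller differences of 0.32 and 0.44.

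Of 17 tested amino acid transporters, none was called over 24 arrays and 9 were called higher and 1 lower over 16, with a median difference of 0.53. Slc7a1, an arginine and lysine transporter, read 4.59 and 4.88 on treated and 2.82 and 3.14 on untreated PERKKO arrays, against 5.16 and 5.15 on treated and 4.87 and 5.03 on untreated eIF2a A/A arrays. Its difference was 1.55 ± 0.40 (limma, adjusted p = 0.105 over 24 and 0.000768 over 16 arrays), and that of Slc7a5, a leucine transporter, 1.60 ± 0.59 (0.299 and 0.000522). Of the 20 cytosolic aminoacyl-tRNA synthetases, which load amino acids onto tRNAs, 10 were called higher and 0 lower over 16 arrays and none over 24, with a median difference of 0.58. Those with the largest differences were Tars at 1.24 ± 0.30, Iars at 1.23 ± 0.29, Mars1 at 1.12 ± 0.37 and Nars at 1.06 ± 0.35, and in each the response was positive in PERKKO and negative in eIF2a A/A cells. In eIF2a A/A cells none of these 4 responses was called in either fit. Of the 20 subunits of eIF2, eIF2B and other initiation factors, 5 were called higher over 16 arrays, with a median of 0.37, among them Eif2s2, the β subunit of eIF2 (0.80 ± 0.31, limma adjusted p = 0.012 over 16 arrays). A second Eif2s2 probe gave 0.59. The 26 ribosomal protein genes tested had 0 called in either fit and a median of -0.05, and 0 of them were called in the response of either line.

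These lists also differed between the lines before treatment, as far as levels from different scan runs can be set side by side. The untreated levels enter the difference of responses, so they are no further evidence for it. The median over the synthetase genes of PERKKO minus eIF2a A/A was -0.50 between treated and -1.01 between untreated cells, against -0.11 between treated and -0.14 between untreated cells over all genes. For amino acid transporters the medians were 0.18 between treated and -0.43 between untreated cells, and for amino acid synthesis -0.15 and -0.43. Lists outside amino acid supply were offset too. Untreated medians were -0.81 for ER chaperones, -0.81 for mitochondrial proteases and chaperones, and -0.68 for ribosomal proteins. Those for cholesterol, for glycolysis and hypoxia, and for interferon-stimulated genes were 0.84, 1.25 and 1.47. An offset was thus not particular to amino acid supply. The 25 genes with a higher response had a median of 0.94 between treated and -2.01 between untreated cells, and 19 of them were lower in untreated PERKKO than in untreated eIF2a A/A cells. Line and scan run cannot be told apart in these levels, and no test was made of them.

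The list of 25 genes of ISR signalling, which includes the transcription factors of the response, had 2 members called higher and 1 lower over 24 arrays, and 11 higher and 2 lower over 16, with a median difference of 0.61. Of all genes 8.95% were called higher and 7.12% lower over 16 arrays. In PERKKO cells 9 of the 25 rose and 0 fell, and in eIF2a A/A cells 4 rose and 0 fell. Over all genes 1.87% rose in PERKKO and 3.08% in eIF2a A/A cells. The 2 members whose difference was called higher over 24 arrays were Fgf21 and Trib3, and the 1 called lower was Ndrg1. Atf5, a relative of ATF4, and Nupr1, a small stress-induced chromatin protein, rose in PERKKO cells by 1.66 ± 0.30 (limma, adjusted p = 0.00588) and 1.92 ± 0.36 (0.00881). Their differences of 1.13 ± 0.42 and 1.46 ± 0.51 were called over 16 arrays (limma, adjusted p = 0.00471 and 0.000382) and not over 24. Klhl24, an adaptor of a ubiquitin ligase, ran the other way, at -2.42 ± 0.62 (limma, adjusted p = 0.103 over 24 and 0.00756 over 16 arrays), and on untreated eIF2a A/A arrays it was not well above background.

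The messenger RNAs of the other eIF2α kinases did not pass the test. The difference was -0.31 ± 0.24 for Eif2ak1 (HRI, activated by heme deficiency and mitochondrial stress), -0.32 ± 0.69 for Eif2ak2 (PKR, activated by double-stranded RNA) and -0.12 ± 0.27 for Eif2ak4 (GCN2, activated by uncharged tRNA), with limma adjusted p-values of 0.727, 0.919 and 0.922 over 24 and 0.213, 0.249 and 0.519 over 16 arrays. Eif2ak4 read 2.22 and 2.25 on treated and 2.34 and 2.39 on untreated PERKKO arrays, against 2.54 and 2.42 on treated and 2.41 and 2.57 on untreated eIF2a A/A arrays. The activity of these kinases is set by their phosphorylation, which arrays do not measure. Eif2ak3 rose in eIF2a A/A cells by 1.12 ± 0.26 (limma, adjusted p = 0.0212), and its difference of -0.74 ± 0.37 was called over 16 arrays (adjusted p = 0.0396) and not over 24 (0.494). Among the 14 genes of kinases, phosphatase subunits and their regulators the median difference was -0.04. The one other member called over 16 arrays was Dnajc3, an ER co-chaperone also described as an inhibitor of PERK and PKR, at -0.91 ± 0.20 (limma, adjusted p = 0.00497 over 16, 0.0442 with slide as a block and 0.0692 over 24 arrays).

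ER chaperones rose in both lines, and several rose less in PERKKO cells. Of 26 chaperones and folding enzymes, 16 rose and 0 fell in PERKKO cells and 20 rose and 0 fell in eIF2a A/A cells, with median responses of 0.93 and 1.27. Over all genes 1.87% rose in PERKKO and 3.08% in eIF2a A/A cells. The difference was called lower for 4 and higher for 0 over 24 arrays, and lower for 10 and higher for 1 over 16, with a median of -0.30. Of all genes 0.18% were called lower over 24 and 7.12% over 16 arrays. Hspa5, the main ER chaperone BiP, read 7.42 and 7.54 on treated and 6.26 and 6.21 on untreated PERKKO arrays, against 9.14 on both treated and 7.49 and 7.60 on untreated eIF2a A/A arrays. Its rise of 1.25 ± 0.14 in PERKKO and 1.60 ± 0.14 in eIF2a A/A cells differed by -0.35 ± 0.19, which was not called over 24 or 16 arrays (limma, adjusted p = 0.549 and 0.0653) and was called over 16 with slide as a block (0.0462).

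The 4 called lower were Ero1b, Sdf2l1, Creld2 and Dnajb9. Sdf2l1, a stabilizer of ER chaperone complexes, read 2.28 and 2.57 on treated and 1.74 and 1.26 on untreated PERKKO arrays, against 4.81 and 4.84 on treated and 2.18 and 2.29 on untreated eIF2a A/A arrays. Its response was 0.93 ± 0.19 in PERKKO and 2.59 ± 0.19 in eIF2a A/A cells, a difference of -1.66 ± 0.28 (limma, adjusted p = 0.0278). Creld2, a folding factor secreted under ER stress, read 6.21 and 6.30 on treated and 5.51 and 5.21 on untreated PERKKO arrays, against 7.84 and 7.89 on treated and 5.76 and 5.83 on untreated eIF2a A/A arrays, with a difference of -1.18 ± 0.19 (limma, adjusted p = 0.0278). For both genes the groups of each line did not overlap, and the step was larger in eIF2a A/A cells.

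Dnajb9, a co-chaperone of BiP induced through IRE1, rose by 1.94 ± 0.14 in PERKKO and 2.97 ± 0.14 in eIF2a A/A cells, with a difference of -1.03 ± 0.20 (limma, adjusted p = 0.0458). A second Dnajb9 probe gave -0.82. Ero1b, an oxidase that supplies disulfide bonds, read 0.45 and 1.1 on treated and -0.23 and -0.14 on untreated PERKKO arrays, against 1.79 and 1.88 on treated and -1.21 on both untreated eIF2a A/A arrays. Its difference was -2.08 ± 0.36 (limma, adjusted p = 0.0283). Of 25 genes of ER-associated degradation 1, Edem2, was called lower over 24 arrays (-1.03 ± 0.21, limma adjusted p = 0.0474), 4 over 16, and none higher in either fit. Edem2, a mannosidase that marks misfolded glycoproteins, changed by 1.00 ± 0.15 in eIF2a A/A cells (limma, adjusted p = 0.0011) and by -0.03 ± 0.15 in PERKKO cells (adjusted p = 0.988). Syvn1, the ubiquitin ligase of this pathway, rose in both lines, and its difference of -0.95 ± 0.26 was called with slide as a block (limma, adjusted p = 0.01) and over 16 arrays (0.00277), but not over 24 (0.125). Xbp1, the transcription factor spliced by IRE1, had a difference of -0.13 ± 0.23 (limma, adjusted p = 0.899), and Selenos, a partner of the degradation complex, one of 0.00 ± 0.20 (0.999). Of the 8 fits that each left out 1 array, Sdf2l1 and Creld2 stayed called in 2 each, Ero1b in 1, and Dnajb9 and Edem2 in 0. The 14 sensors and factors of the IRE1, ATF6 and CREB3 branches had a median difference of -0.15 and 0 called over 24 arrays.

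**Figure D3:**
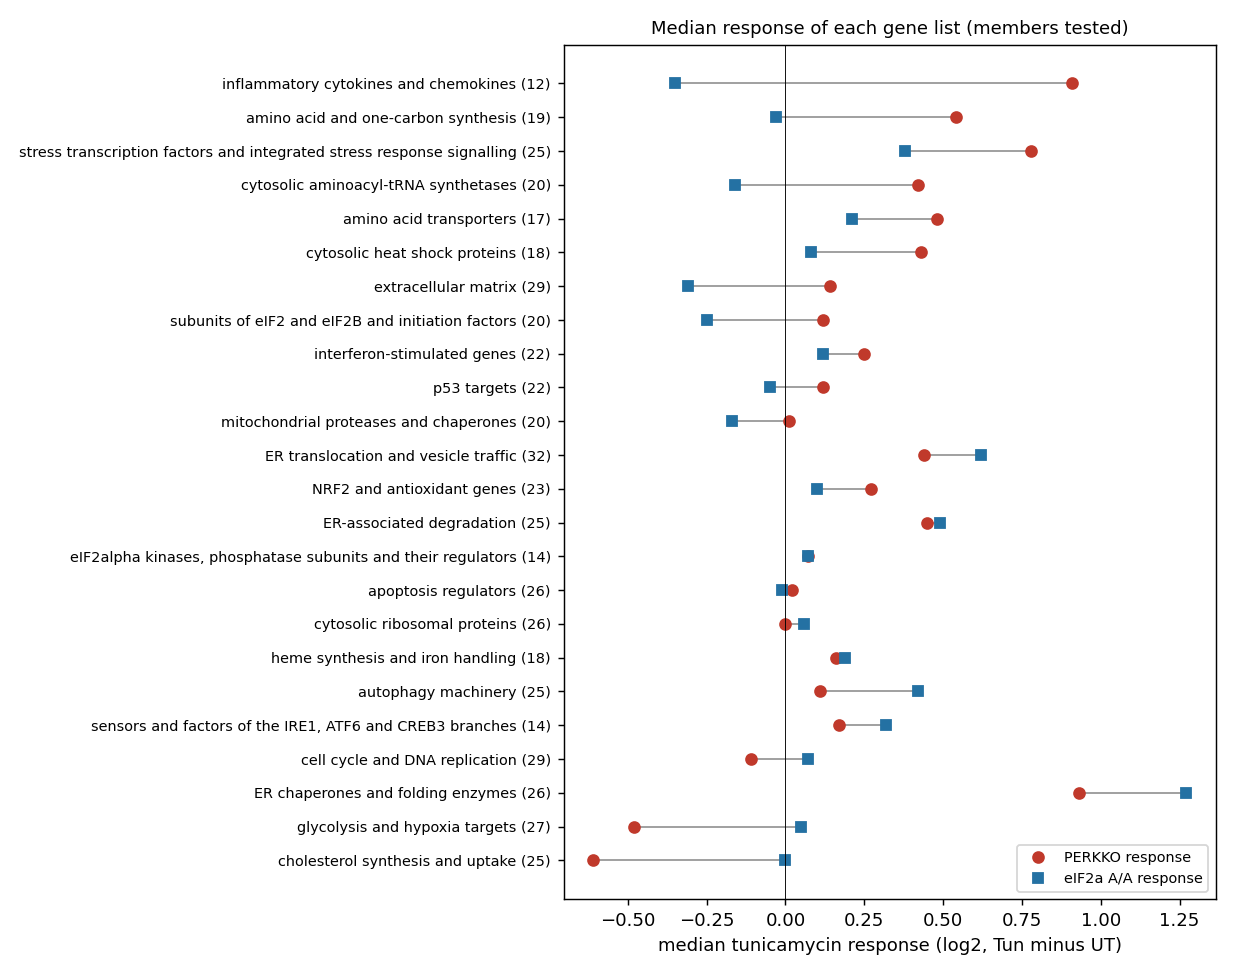
Each line of the plot is a gene list with its number of tested members, ordered by the median difference of responses. Circles give the median tunicamycin response in PERKKO cells and squares that in eIF2a A/A cells (log2), with ER chaperones at 0.93 and 1.27, amino acid synthesis at 0.54 and -0.03, and cholesterol synthesis at -0.61 and 0 in that order.

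Outside the ISR and the ER, Cxcl10, a chemokine that attracts T cells and an interferon target, gave one of the largest differences. It read 4.91 and 4.96 on treated and 1.81 and 2.11 on untreated PERKKO arrays, against 1.1 and 0.88 on treated and 1.05 and 1.55 on untreated eIF2a A/A arrays. It rose by 2.98 ± 0.28 in PERKKO cells (7.88-fold) and its treated and untreated arrays overlapped in eIF2a A/A cells, with a difference of 3.29 ± 0.40 (limma, adjusted p = 0.00237). Of the 12 tested inflammatory cytokines and chemokines, of 18 listed, Cxcl10 was the one called over 24 arrays, 4 were called higher and 0 lower over 16, and the median difference was 0.87. The chemokine gene Cxcl5 had 2.56 ± 1.07, called over 16 arrays (limma, adjusted p = 0.000618) and not over 24 (0.382). On the treated eIF2a A/A arrays Cxcl5 was not well above background, so this is a fitted value. Of the 22 tested interferon-stimulated genes none was called over 24 arrays, and 5 were called higher and 3 lower over 16. In that fit 8.95% of all genes were called higher and 7.12% lower. Ifit1, an antiviral gene, had the largest difference of these 22, 2.11 ± 0.85 (limma, adjusted p = 0.361 over 24 and 0.00163 over 16 arrays).

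Fut1, a fucosyltransferase of the H antigen, read -2.60 and -2.44 on treated and -5.93 and -6.01 on untreated PERKKO arrays, and on the untreated ones and all eIF2a A/A arrays it was not well above background. It was at least 3.27-fold higher in treated than in untreated PERKKO cells, and the fitted difference of 3.25 ± 0.65 (limma, adjusted p = 0.0474) is no bound. Ell2, a transcription elongation factor, and S1pr2, a receptor for sphingosine-1-phosphate, rose in PERKKO cells by 1.23 ± 0.20 and 1.02 ± 0.13, with differences of 1.74 ± 0.29 and 0.90 ± 0.18 (limma, adjusted p = 0.0278 and 0.0474). Angptl4, an inhibitor of lipoprotein lipase, read 1.85 and 1.96 on treated and -3.30 and -1.41 on untreated PERKKO arrays, against -1.12 and -1.07 on treated and -1.02 and -0.97 on untreated eIF2a A/A arrays. Its rise of 4.26 ± 0.69 in PERKKO cells (19.2-fold, limma, adjusted p = 0.00286) gave a difference of 4.36 ± 0.98, which missed the threshold over 24 arrays (0.0677) and passed it with slide as a block (0.00454). The untreated PERKKO arrays of Angptl4 were far apart, and its difference was 3.36 on slide 3 and 5.36 on slide 4.

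Dusp8 and Pmepa1 moved in opposite directions, and both stayed called in all 23 alternative settings. Dusp8, a phosphatase of stress-activated MAP kinases, read 0.62 and 0.81 on treated and -1.32 and -0.67 on untreated PERKKO arrays, against -0.91 and -0.74 on treated and 0.85 and 0.76 on untreated eIF2a A/A arrays. It rose by 1.71 ± 0.26 in PERKKO cells and fell by 1.63 ± 0.26 in eIF2a A/A cells, a difference of 3.34 ± 0.37 (limma, adjusted p = 0.00112). Pmepa1, an inhibitor of TGF-β signalling, read -0.46 and -0.35 on treated and -0.84 and -1.19 on untreated PERKKO arrays, against 1.78 and 1.72 on treated and 3.54 and 3.61 on untreated eIF2a A/A arrays. It had the lowest p of all genes, with a difference of 2.44 ± 0.21 (limma, adjusted p = 8.36e-05), and its second probe gave 2.28.

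Most of the other genes with a higher response in PERKKO cells fell in eIF2a A/A cells. Of the 25, 18 fell and 0 rose in eIF2a A/A cells, while 9 rose and 2 fell in PERKKO cells. Over all genes 1.82% fell and 3.08% rose in eIF2a A/A cells, and 1.87% rose and 0.408% fell in PERKKO cells. The 25 were picked by the difference of these same responses, which favours such a split. The counts thus describe the set and are no further evidence. Timp3, an inhibitor of matrix proteases, read 0.08 and 0.33 on treated and -0.63 and -0.12 on untreated PERKKO arrays, against 2.10 and 2.30 on treated and 4.30 and 4.32 on untreated eIF2a A/A arrays. It fell by 2.11 ± 0.25 in eIF2a A/A cells, and the difference was 2.69 ± 0.35 (limma, adjusted p = 0.00406). The matrix gene Fbln2 fell in both lines, by 1.32 ± 0.32 in PERKKO and 3.70 ± 0.32 in eIF2a A/A cells, with a difference of 2.37 ± 0.45 (limma, adjusted p = 0.0383). These 2 were the members called among 29 extracellular matrix genes, whose median difference was 0.39, with 7 called higher and 0 lower over 16 arrays. In that fit 8.95% of all genes were called higher and 7.12% lower. Ccn1, a matricellular protein of growth signalling, differed by 2.39 ± 0.44 (limma, adjusted p = 0.0375), with 1.78 on slide 3 and 3.01 on slide 4. The transcription factor genes Klf10 and Pparg differed by 1.36 ± 0.24 and 1.46 ± 0.29 (limma, adjusted p = 0.0283 and 0.0458). The ubiquitin ligase gene Rnf144a and the glutamate transporter gene Slc1a3 differed by 3.64 ± 0.74 and 2.48 ± 0.49 (limma, adjusted p = 0.0482 and 0.0458). Rnf144a was well above background on 1 untreated PERKKO and 1 treated eIF2a A/A array. Slc1a3 was so on neither untreated PERKKO array, and rose at least 1.37-fold in PERKKO cells. Across the alternative settings their differences went down to 1.13 and 1.02. Opn1sw and Olfr10, named for a cone opsin and an olfactory receptor, were not well above background on any PERKKO array nor on the treated eIF2a A/A arrays. Untreated eIF2a A/A cells were at least 1.3-fold and 1.42-fold higher than treated ones in these genes, so their fitted differences of 3.75 ± 0.72 and 3.36 ± 0.58 (limma, adjusted p = 0.0387 and 0.0283) rest on signals near background. Both genes entered the test only through untreated eIF2a A/A cells, the only group where every array was well above background. The filter thus favoured high values there, and the calls are no further support for a difference.

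Genes with a lower response in PERKKO cells had mostly risen in eIF2a A/A cells. Of the 26, 22 rose and 0 fell in eIF2a A/A cells, while 3 rose and 4 fell in PERKKO cells. Over all genes 3.08% rose and 1.82% fell in eIF2a A/A cells, and 1.87% rose and 0.408% fell in PERKKO cells. Picking the 26 by the difference of these responses favours such a split, so the counts only describe the set. Ndrg1, induced by hypoxia and stress, read 4.09 and 4.16 on treated and 4.41 and 4.83 on untreated PERKKO arrays, against 3.45 on both treated and 1.76 and 1.81 on untreated eIF2a A/A arrays. It rose by 1.67 ± 0.19 in eIF2a A/A cells and had a value of -0.49 ± 0.19 in PERKKO cells that did not pass (limma, adjusted p = 0.261), a difference of -2.16 ± 0.27 (adjusted p = 0.00308). Bnip3, a mitophagy receptor induced by hypoxia, read 6.80 and 6.84 on treated and 7.55 and 7.51 on untreated PERKKO arrays, against 4.09 on both treated and 3.06 and 3.19 on untreated eIF2a A/A arrays. Its difference was -1.67 ± 0.31 (limma, adjusted p = 0.0375), and its other probes gave -1.56 and -2.0. In both genes the untreated PERKKO level was the highest of the 4 groups.

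Hkdc1, a hexokinase family member, had the largest negative fitted difference, -3.73 ± 0.75 (limma, adjusted p = 0.0474). It was at least 2.89-fold higher in treated than in untreated eIF2a A/A cells, and on no PERKKO array was it well above background. Of all groups, Hkdc1 was well above background only in treated eIF2a A/A cells, and it entered the test through that group. The filter thus favoured a high value there, and the call is no further support for a difference. Gpr146, a receptor of lipid metabolism, read 2.08 and 2.27 on treated and 2.00 and 1.87 on untreated PERKKO arrays, against -0.53 and -0.55 on treated and -3.22 and -3.21 on untreated eIF2a A/A arrays. Its difference was -2.43 ± 0.47 (limma, adjusted p = 0.0426). AI661453 differed by -2.22 ± 0.40 (limma, adjusted p = 0.0351), but its probe was well above background on 5 of the 8 arrays, and a second probe, above it on 6, gave 0.77. Cdk2ap2, a regulator of the cell cycle kinase CDK2, differed by -1.45 ± 0.22 (limma, adjusted p = 0.0149).

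The 4 genes that fell in PERKKO cells alone were Smtnl2, Sh2d5, Bbof1 and Piga. Smtnl2, of the smoothelin family of actin-binding proteins, read -0.13 and 0.02 on treated and 1.75 and 1.77 on untreated PERKKO arrays, against -2.29 and -2.08 on treated and -3.19 and -3.47 on untreated eIF2a A/A arrays, with a difference of -2.96 ± 0.58 (limma, adjusted p = 0.0426). Sh2d5, an adaptor protein, and Bbof1, a protein of ciliary basal bodies, differed by -1.45 ± 0.25 and -1.41 ± 0.27 (limma, adjusted p = 0.0283 and 0.0383). Piga, the enzyme of the first step of GPI anchor synthesis, differed by -1.40 ± 0.26 (limma, adjusted p = 0.0383).

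Lists of cholesterol synthesis and of hypoxia genes had negative median differences, with 1 member called over 24 arrays and the rest over 16, where 7.12% of all genes were called lower. Of 25 genes of cholesterol synthesis and uptake, 14 were called lower and 0 higher over 16 arrays and none over 24, with a median difference of -0.62, from a median response of -0.61 in PERKKO and 0 in eIF2a A/A cells. Insig1, a brake on the sterol pathway, read -0.91 and -0.87 on treated and 0.02 and -0.05 on untreated PERKKO arrays, against -0.86 and -0.60 on treated and -1.82 and -1.68 on untreated eIF2a A/A arrays. Its difference of -1.89 ± 1.02 had a limma adjusted p of 0.543 over 24 arrays, 0.0227 with slide as a block and 0.000874 over 16. On WT arrays Insig1 read 0.77, 0.55, -2.36 and -2.11 with and -1.42, -0.89, -0.20 and -0.33 without tunicamycin. The WT response thus differed between scan runs, and that difference enters the spread over 24 arrays. The synthesis enzymes Mvd and Lss differed by -1.49 ± 0.52 and -1.39 ± 0.68 (limma, adjusted p = 0.00379 and 0.00227 over 16 arrays, and 0.265 and 0.483 over 24). Of 27 genes of glycolysis and hypoxia, Bnip3 was the 1 called lower over 24 arrays, and 13 were called lower and 1 higher over 16, with a median of -0.40. Egln3, an oxygen-sensing hydroxylase, Ankrd37, a hypoxia target, and Adm, which encodes adrenomedullin, differed by -1.82 ± 0.75, -1.71 ± 0.41 and -1.64 ± 0.81, each called over 16 arrays (limma, adjusted p = 0.000768, 0.000942 and 0.00106) and not over 24 (0.381, 0.0819 and 0.491). Untreated PERKKO cells had the higher levels of these 2 lists. PERKKO minus eIF2a A/A had a median of 0 between treated and 0.84 between untreated cells for cholesterol genes, and of 0.68 between treated and 1.25 between untreated cells for glycolysis and hypoxia genes.

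Cytosolic heat shock proteins had none called over 24 arrays, with 6 of 18 called higher and 1 lower over 16 and a median of 0.40. Of all genes 8.95% were called higher and 7.12% lower over 16 arrays. Hsph1, a nucleotide exchange factor of HSP70, and Dnaja1, an HSP70 co-chaperone, rose in PERKKO cells by 1.34 ± 0.22 and 0.84 ± 0.15, and differed by 1.11 ± 0.31 and 0.84 ± 0.21 (limma, adjusted p = 0.00169 and 0.00421 over 16 arrays, and 0.14 and 0.0997 over 24). A second probe gave a PERKKO response of 1.22 and a difference of 1.06 for Hsph1, but 0.35 and 0.56 for Dnaja1. Bmf, a proapoptotic BH3-only gene, ran the other way at -2.09 ± 0.51 (limma, adjusted p = 0.0863 over 24 and 0.000138 over 16 arrays), while the 26 apoptosis regulators had 0 called over 24 arrays, 4 higher and 3 lower over 16, and a median of -0.04. Id1, a target of BMP signalling, and Junb, an immediate early gene, were among the 10 that fell in both lines. Id1 fell by 2.23 ± 0.37 in PERKKO and 3.64 ± 0.37 in eIF2a A/A cells, and Junb by 1.59 ± 0.31 and 1.53 ± 0.31 in that order.

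The other functional lists had 0 members called over 24 arrays and medians between -0.17 and 0.22. Their counts over 16 arrays stand beside 8.95% of all genes called higher and 7.12% called lower in that fit. Over 16 arrays, 3 of 23 NRF2 and antioxidant genes were called higher and 1 lower (median 0.05), 2 and 1 of 18 genes of heme and iron (-0.06), and 6 and 1 of 22 p53 targets (0.22). Mitochondrial proteases and chaperones had 1 called higher and 0 lower of 20 (0.19), ER translocation and traffic 1 and 2 of 32 (0.06), cell cycle genes 0 and 2 of 29 (-0.17), and autophagy genes 1 and 5 of 25 (-0.12). Among the cell type markers, Pparg, 1 of 4 tested adipocyte and bone markers (median 0.09), was the one called over 24 arrays. The median difference was 0.63 over 6 neural, 0.52 over 3 haematopoietic, 0.33 over 9 epithelial, 0.28 over 14 fibroblast, 0.14 over 4 muscle and -0.11 over 3 endothelial markers. Summed neural markers read 26.1 to 31.6 on treated and 34.5 to 44.2 on untreated PERKKO arrays, against 41.9 to 42.3 on treated and 71.7 to 98 on untreated eIF2a A/A arrays, and their part in the results was not tested.

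Arrays of the other lines, which the sorting did not use, though they shared the estimate of the spread, gave a further readout of the same genes. All treated ATF4KO arrays were on slide 1 and all untreated ones on slide 2. Treatment and slide thus cannot be told apart in that line. WT replicates 1 and 2 were split the same way, while WT replicates 3 and 4 were all on slide 4. In ATF4KO cells with tunicamycin 12% of all genes rose and 17.1% fell, in Fv2E-PERK cells with AP, a compound that the labels name only so, 2.79% rose and 1.28% fell, and in WT cells with tunicamycin 21.2% rose and 16.3% fell. Of the 25 genes with a higher response in PERKKO cells, 5 rose and 11 fell in ATF4KO, 6 rose and 1 fell in Fv2E-PERK, and 8 rose and 11 fell in WT cells. Of the 26 with a lower response, 17 rose and 0 fell in ATF4KO, 4 rose and 0 fell in Fv2E-PERK, and 15 rose and 5 fell in WT cells.

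The 7 genes that rose in PERKKO cells alone fell into those that Fv2E-PERK activation and WT cells with tunicamycin also raised and those that they did not. Asns rose by 1.55 in Fv2E-PERK and 2.13 in WT cells, Trib3 by 4.0 and 3.56, Fgf21 by 3.87 and 5.48 and Fut1 by 3.48 and 3.39, all called (limma, adjusted p at most 0.00494). Fut1 was well above background on 1 of 4 untreated WT and 1 of 2 untreated Fv2E-PERK arrays, and Fgf21 on 2 of 4 untreated WT arrays. The sizes of those rises are therefore fitted values. In ATF4KO cells Asns fell by 1.38 and Trib3 rose by 1.74 (limma, adjusted p = 0.000834 and 0.000447). Those p-values cannot tell treatment from slide. Fgf21 at 1.42 and Fut1 at 0.72 did not pass in ATF4KO cells. Neither was well above background on any ATF4KO array, so these are fitted values and no measured responses. Cxcl10 had -0.29 in Fv2E-PERK cells and fell by 1.17 in WT cells, Ell2 had -0.14 and fell by 0.97, and S1pr2 had -0.45 and fell by 0.26. Ndrg1, which did not pass in PERKKO cells, rose in ATF4KO, Fv2E-PERK and WT cells by 0.92, 2.08 and 2.83. Sdf2l1 rose by 4.77 in ATF4KO and 4.58 in WT cells and had -0.04 in Fv2E-PERK cells.

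**Figure D4:**
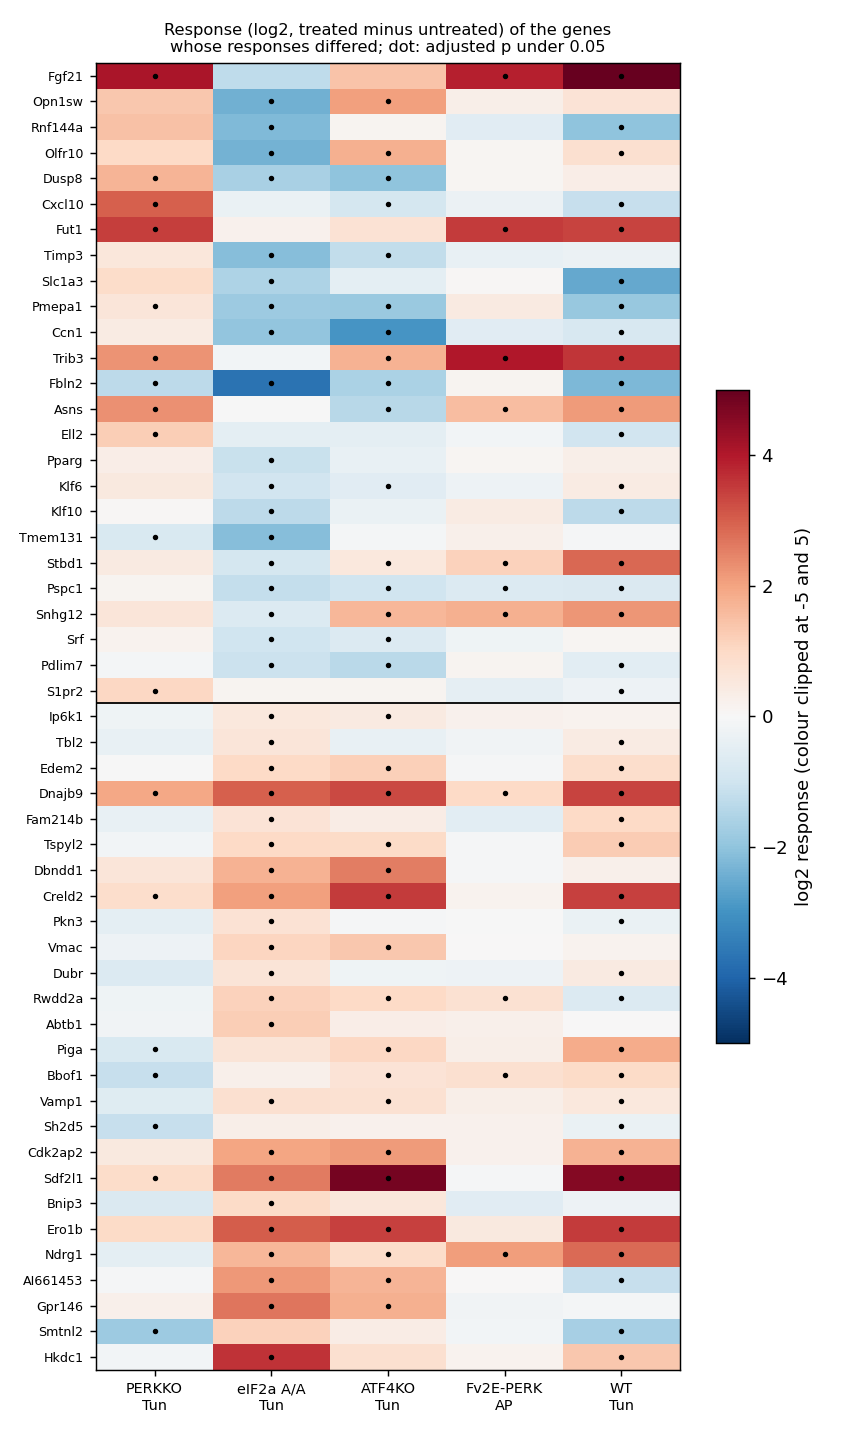
Rows are the 51 genes whose responses differed, ordered by the difference, with the 25 higher in PERKKO cells above the line and the 26 lower ones below it, and colours give the log2 response in each line, with a dot where it was called. Asns, Trib3, Fgf21 and Fut1 are red in PERKKO, Fv2E-PERK and WT cells, and the ER genes Sdf2l1, Creld2, Ero1b and Dnajb9 are red in eIF2a A/A, ATF4KO and WT cells.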

How the data were processed

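Mouse embryonic fibroblasts were measured on 24 one-colour Agilent arrays, of which 8 enter the comparison. The deposited scanner files give processed signal as intensity, which the software Agilent Feature Extraction 10.7.1.1 had background-subtracted and detrended, per the file headers. The authors' deposited table holds log2 values, of which 99.3% lay within 0.001 of the log2 processed signal after a shift for each array and probe, so its baseline per probe is unknown, and it was used as an alternative. Its array medians ran from -0.32 to 0.39 on the 8 arrays.

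Here log2 processed signal minus the 75th percentile of each array (254.9 to 408.3 intensity units on the 8 arrays) was used, control spots were left out and spots of a probe averaged. Of 55681 probes 26631 matched 1 RefSeq gene symbol through their accession and 29050 none. The 4563 tested genes with more than 1 probe were read from the brightest. Genes well above background on all arrays of at least 1 of the 10 groups were tested (14459), and 5711 were not. Normexp used the median spot signal. limma 3.58.1 in R 4.3.3 was fitted to all 24 arrays with group and scan run, and two-sided p-values were Benjamini-Hochberg adjusted over all genes at a threshold of 0.05. The number of arrays limits the precision. The fit was also run on simulated arrays with independent noise, no slide effect and a WT response equal in both scan runs. That run cannot show how the fit handles such differences in the real arrays.

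The members, lists and motifs were chosen with earlier results of these data known. Named genes are the 10 largest called differences in each direction, the leading members of each response class and list, and a fixed panel. Same-numbered arrays did not deviate together, with correlations of -0.47 in PERKKO and 0.06 in eIF2a A/A cells. PERKKO arrays paired crosswise, by slide. Alternatives covered background correction, scaling, filters, arrays in the fit, blocks and leaving out each array.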

Additional observations from a re-analysis of the deposited data

Results flagged for a closer look

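The difference of responses, tested directly as an interaction in limma, passed the threshold for each of these genes. Among them, Fgf21, Opn1sw, Olfr10, Rnf144a, Fut1, Slc1a3, Hkdc1 and AI661453 were not well above background on some of the arrays compared. Their differences are fitted values and no measured ratios. Opn1sw, Olfr10 and Hkdc1 entered the test only through the eIF2a A/A group where they read high. Stress genes with a higher response in PERKKO than in eIF2a A/A cells were Fgf21 at 5.36, Trib3 at 2.38 and Asns at 2.32 (log2). Others with a higher response in PERKKO cells were Opn1sw at 3.75, Rnf144a at 3.64, Olfr10 at 3.36, Dusp8 at 3.34, Cxcl10 at 3.29, Fut1 at 3.25, Timp3 at 2.69, Slc1a3 at 2.48, Pmepa1 at 2.44, Ccn1 at 2.39, Fbln2 at 2.37, Ell2 at 1.74, Pparg at 1.46, Klf10 at 1.36 and S1pr2 at 0.90. ER genes with a lower response in PERKKO cells were Ero1b at -2.08, Sdf2l1 at -1.66, Creld2 at -1.18, Dnajb9 at -1.03 and Edem2 at -1.03. Others with a lower response were Hkdc1 at -3.73, Smtnl2 at -2.96, Gpr146 at -2.43, AI661453 at -2.22, Ndrg1 at -2.16, Bnip3 at -1.67, Sh2d5 at -1.45, Cdk2ap2 at -1.45, Bbof1 at -1.41 and Piga at -1.40.

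In the WT groups of 4 arrays, 1 array stood far from the other 3 by Dixon's criterion for 5 gene levels, and chance alone sets an array apart in some of the groups examined. Replicates 1 and 2 of each WT group belong to one scan run and replicates 3 and 4 to another. The 4 values are thus not a uniform sample, as the criterion assumes, and it serves here only as a flag. The level that stood apart was -0.66 for Fgf21, 4.02 for Cth, 3.26 for Ero1b and 6.40 for Ndrg1 on a treated WT array, and 1.40 for S1pr2 on an untreated one. WT arrays enter the difference only through the shared spread.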

How the results depend on the processing

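With the settings of the report, the test called 25 genes higher and 26 lower (49% higher), and counts are given here as higher and lower for the difference. Normexp background correction gave 15 and 7 (68.2% higher), quantile normalization 24 and 41 (36.9%), array medians 29 and 60 (32.6%), no filter on dim probes 5 and 2, probes well above background on all 8 arrays 33 and 53 (38.4%), and the mean of all probes of a gene 31 and 40. The 8 arrays alone gave 279 and 221, the 16 arrays 1294 and 1030, slide as a block 80 and 74, and 16 arrays with slide as a block 1739 and 1372. The deposited values gave 25 and 26. Without the PERKKO arrays of slide 3 the counts were 8 and 2, and without those of slide 4 they were 3 and 3. Leaving out the PERKKO arrays of a slide, the 16 arrays with slide as a block and the crossed replicate block were chosen after seeing the data. With the replicate number as a block they were 4 and 0, with 153 genes called in PERKKO and 347 in eIF2a A/A cells and classes of 1, 1 and 51. With the crossed replicate block, which follows the PERKKO slides, they were 3 and 0, with 157 and 411 genes called and classes of 0, 1 and 58.

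Genes called in the PERKKO response numbered 330, against 214 with no filter, 819 with 8 arrays, 2650 with 16, 3265 with 16 and slide, 95 without slide 3 and 52 without slide 4. Those called in the eIF2a A/A response numbered 708, against 440 with normexp, 2063 with 8 arrays, 3941 with 16 and 4634 with 16 and slide. The classes of PERK-null only, A/A only, shared and opposite genes held 11, 33, 121 and 2. They held 7, 11, 76 and 1 with normexp, 2, 4, 75 and 1 with no filter, 109, 308, 277 and 41 with 8 arrays, 623, 1168, 772 and 221 with 16, and 849, 1510, 937 and 310 with 16 and slide. Array medians gave 18, 60 and 4 for PERK-null only, A/A only and opposite, slide as a block 27, 97 and 8, and probes above background on all 8 arrays 17 and 57 for the first 2 classes. Without slide 3 they held 5, 4, 46 and 1, and without slide 4, 2, 4, 33 and 0.

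Leaving out 1 of the 8 arrays gave 4 to 15 genes higher, 2 to 12 lower, 103 to 260 called in PERKKO and 174 to 655 in eIF2a A/A cells, and classes of 1 to 7, 3 to 15, 46 to 91 and 1 to 2. Over 87 named genes and 23 settings, 1480 of 1989 values kept direction and side of the threshold, 374 lost the call, 118 gained it and 17 changed sign, all in genes with differences near 0. Herpud1 had 0.04 with normexp, 0.06 with quantile normalization, 0.15 without slide 3 and -0.23 to 0.19 without single arrays (among them 0.03 and 0.10). Cth had 0.10 with normexp, 0.41 without slide 3, and -0.32 to 0.30 without single arrays (among them 0.10 and 0.09). Ppp1r15a had 0.04 without slide 4 and -0.11 to 0.01 without single arrays. Junb had 0.03 without slide 4 and -0.37 to 0.25 without single arrays (among them 0.15 and 0.02). The cause was not tested. Signal near background limits Fut1, Slc7a11, Hkdc1, Opn1sw, Olfr10, Fgf21, Slc1a3, Rnf144a, Cxcl5, Klhl24 and AI661453.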
